A study of Homo sapiens with 4 samples.

Results

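Between the 5′ ends of divergently oriented protein-coding genes, RAD21 formed 3355 peaks in untreated wild-type HCT116 cells, 5.90% of the 56853 peaks of the list. A peak was counted there when its summit on chromosomes 1 to 22 lay outside every gene of the GENCODE version 44 annotation (GRCh38), more than 1 kb from every gene end and less than 200 kb from the nearest protein-coding 5′ end, with a protein-coding gene of the minus strand next on the left and one of the plus strand next on the right. The rule used only annotation and position, and no measured value. RAD21 is the kleisin subunit that closes the cohesin ring, and HCT116 cells are an established line from a human colon carcinoma. The experiment held 3 RAD21 ChIP-seq libraries, 1 per condition, and 1 Input, so there were no replicates to give an error of any value. Only the peak list of the wild-type cells was used. Not analysed here were the RAD21 ChIP libraries of HCT116_RAD21_AID cells, a single clone that carries the mAID degron on RAD21 and expresses OsTIR1, without auxins or after 6 h with IAA and α-NAA at 500 µM each, and the Input of the auxin-treated clone.

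Cohesin is loaded onto chromatin as a ring, extrudes DNA into loops and is retained where it meets CTCF bound in a given orientation. It is held on the side of the N terminus of CTCF, which lies beyond the 3′ end of the CTCF motif, so that the strand of a motif tells which way the loop extends. Divergent genes are transcribed away from each other and share the DNA between their 5′ ends, where distal promoter elements, enhancers and insulators of both genes can lie. Convergent genes face each other with their 3′ ends, and tandem genes have one end of each kind. Peaks between such genes, chosen by the same limits, are set beside those of divergent genes below. The 200 kb limit runs to a 5′ end, which for convergent genes lies at the far end of each gene. Sequence beside long genes can thus be left out there, and the part of this in the comparisons was not tested.

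At each summit the peak list gives a fold enrichment, the ratio of ChIP fragments to the local background with 1 added to both. The fragments themselves were recovered from the fold enrichment and the p-value. The 3355 peaks between divergent genes had a median fold enrichment of 7.34, with quartiles of 4.33 and 13.8 and a range from 1.34 to 161. Their summits were covered by a median of 65.0 fragments, with quartiles of 35.0 and 125 and a range from 15.0 to 1310. A background at its lowest value of 5.90 fragments was found at 964 of the peaks (28.7%), and it exceeded that value at least 10 times at 8 of them (0.238%). The median peak was 466 bp wide.

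The sequences below show what lay under some of these summits, each with 50 bases of the GRCh38 reference on either side of the summit. The first 4 are among the 10 highest peaks between divergent genes, LMNB2-GADD45B is the second widest, and the last is the highest with an AP-1 sequence and no CTCF match with up to 1 mismatch. Capitals mark the match to the CTCF consensus with the fewest mismatches where there were at most 2, and the AP-1 sequence in the last line.
KRT17-EIF1, chr17:41662789-41662889, plus strand: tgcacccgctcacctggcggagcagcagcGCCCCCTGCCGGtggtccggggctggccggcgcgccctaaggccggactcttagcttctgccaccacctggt
MTHFSD-FOXC2, chr16:86563983-86564083, plus strand: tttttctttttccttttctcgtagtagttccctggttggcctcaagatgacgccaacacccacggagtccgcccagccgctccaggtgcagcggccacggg
SRBD1-PRKCE, chr2:45643806-45643906, plus strand: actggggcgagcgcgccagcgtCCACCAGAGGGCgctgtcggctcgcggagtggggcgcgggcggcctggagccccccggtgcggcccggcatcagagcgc
PRKAG3-WNT6, chr2:218847794-218847894, plus strand: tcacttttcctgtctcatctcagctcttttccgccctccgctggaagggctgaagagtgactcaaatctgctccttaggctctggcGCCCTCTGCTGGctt
LMNB2-GADD45B, chr19:2474690-2474790, plus strand: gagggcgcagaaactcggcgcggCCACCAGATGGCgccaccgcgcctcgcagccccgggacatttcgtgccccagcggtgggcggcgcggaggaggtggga
NFKBIE-TMEM151B, chr6:44268168-44268268, plus strand: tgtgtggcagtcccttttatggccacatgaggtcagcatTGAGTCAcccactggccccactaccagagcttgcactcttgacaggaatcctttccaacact
The windows of SRBD1-PRKCE, PRKAG3-WNT6 and LMNB2-GADD45B hold the exact CTCF consensus. That of KRT17-EIF1 differs from it by 1 base, and that of MTHFSD-FOXC2 has no stretch with fewer than 3 mismatches.

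The highest peak lay between KRT17, which encodes an epithelial keratin, and EIF1, a translation initiation factor. It spanned 929 bp of chromosome 17, from 41662338 to 41663266, and 1310 fragments over a background of 7.15 gave a fold enrichment of 161. The exact Poisson interval of the fragments was 1240 to 1383. All Poisson and Wilson intervals given here are 95% intervals that cover counting error only, and PCR copies that escaped duplicate removal would make them too narrow. The peak lay 38.0 kb from the 5′ end of KRT17 and 26.0 kb from that of EIF1, and it held 3 matches to the CTCF consensus with up to 1 mismatch. The second highest, with 1218 fragments and a fold enrichment of 128, lay 2.80 kb from FOXC2, a forkhead transcription factor of mesenchyme and lymphatic vessels. Its span, from 86563523 to 86564496 on chromosome 16, held no match with up to 1 mismatch. At both peaks a gene outside the pair lay nearer to the summit, 2.73 kb away at KRT17-EIF1 and 1.11 kb at MTHFSD-FOXC2. The fragment intervals of these 2 peaks overlap (1240 to 1383 and 1151 to 1288), while the background was lower at KRT17-EIF1, 7.15 against 8.52 fragments.

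The other 8 of the 10 highest peaks had fold enrichments from 73.2 to 94.6 and between 523 and 730 fragments. WNT7B-PPARA reached 94.6 at 1.56 kb from WNT7B, a WNT ligand, and 172 kb from PPARA, the nuclear receptor of fatty acid oxidation. ADRA1D-PRNP reached 88.1 between an adrenoceptor gene and the prion protein gene, and BLCAP-CTNNBL1 reached 80.6. TSHZ3-ZNF507 reached 78.8 in a gap of 996 kb between zinc finger genes, 875 kb from TSHZ3 and 121 kb from ZNF507. NOTCH1-EGFL7 and SRBD1-PRKCE each had 75.9, with 523 and 730 fragments. The former lay 85.5 kb from NOTCH1, the receptor of the Notch pathway, and the latter 7.49 kb from PRKCE, a protein kinase C. PADI2-PADI1, between genes of enzymes that convert arginine to citrulline, had 74.3. PRKAG3-WNT6 had 73.2 at 15.8 kb from PRKAG3, a kinase subunit gene, on the way to WNT6, another WNT ligand. A gene outside the pair lay nearer to the summit at ADRA1D-PRNP (1.43 kb), BLCAP-CTNNBL1 (6.47 kb) and TSHZ3-ZNF507 (2.29 kb). The same held for NOTCH1-EGFL7 (14.4 kb) and PRKAG3-WNT6 (5.78 kb). At WNT7B-PPARA, SRBD1-PRKCE and PADI2-PADI1 a gene of the pair was the nearest. Of the 10, 2 held the exact CTCF consensus within 50 bp of the summit and another 3 held it with 1 mismatch. Over all peaks between divergent genes the shares were 13.9% and 32.2% in this order.

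The 3 lowest fold enrichments, 1.34, 1.35 and 1.35, did not come from peaks with few fragments. All 3 lay between ZNF337 and DEFB115, a gap of 5561 kb that spans the centromere of chromosome 20. They rested on 545, 180 and 150 fragments over backgrounds 68.9, 22.6 and 18.8 times the lowest one. The widest peak, METTL21A-CCNYL1, covered 3024 bp with a fold enrichment of 21.3 at 1.40 kb from METTL21A. LMNB2-GADD45B covered 2550 bp with 50.9 at 1.38 kb from GADD45B, a stress response gene, and NEURL3-ARID5A covered 2356 bp with 54.3 at 1.45 kb from NEURL3. All 3 of the widest peaks thus lay within 2 kb of a 5′ end.

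At the limits of the rule, the peak just inside the 1 kb limit was that of MESD-TLNRD1, 1002 bp from the nearest gene end, with a fold enrichment of 6.38. The one just outside, ANKRD30BL-GPR39 at 1000 bp, had 2.61. Just inside the 200 kb limit was PMEPA1-C20orf85 with 2.61 at 199523 bp from the nearest protein-coding 5′ end. The 1 kb limit left out 848 peaks between divergent genes and the 200 kb limit another 643. A further 2192 summits lay between divergent protein-coding genes but inside a gene of another type.

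GENCODE placed 3550 pairs of protein-coding genes next to each other in divergent orientation. Of these, 783 were less than 2 kb apart and could hold no peak under the rule. Some sequence met every limit in 2628 pairs, and 1477 of them (56.2%) had a peak. The share was 45.3% of 2397 convergent pairs and 46.3% of 6364 tandem pairs. Divergent gaps were longer, with a median of 27736 bp against 12224 bp for convergent and 19123 bp for tandem genes. Counted per Mb of the sequence that met the limits, the order was the other way round. The 161 Mb between divergent genes held 20.8 peaks per Mb (interval 20.1 to 21.5), the 90.4 Mb between convergent genes held 25.9 (24.8 to 26.9), and the 289 Mb between tandem genes held 22.3 (21.8 to 22.9). None of these intervals overlap, although neighbouring peaks are not independent of each other and the 200 kb limit does not act alike on the orientations.

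Peak density between divergent genes fell with distance from the genes, from 33.7 per Mb at 1 to 2 kb from the nearer gene of the pair to 12.8 at 100 to 200 kb. It was 31.5 at 2 to 5 kb (28.2 to 35.0), 25.3 at 5 to 10 kb (22.9 to 27.9) and 24.0 at 10 to 20 kb (22.1 to 26.0). At the same distances from convergent genes it was 39.3 (35.3 to 43.6), 33.7 (30.3 to 37.3) and 30.9 (28.2 to 33.9), so that the intervals did not overlap. From 20 to 50 kb the densities were 21.2 and 22.8, from 50 to 100 kb 18.2 and 17.8, and from 100 to 200 kb 12.8 and 16.2, with overlapping intervals. The intervals of divergent and convergent pairs were thus apart only between 2 and 20 kb from the genes. At 1 to 2 kb, with 33.7 against 37.8, they overlapped. At 100 to 200 kb they overlapped only narrowly, 11.6 to 14.2 and 13.9 to 18.7. Overlap of intervals does not exclude a difference. Tandem pairs lay between the other two from 2 to 20 kb, and their intervals overlapped with those of divergent pairs at every distance.

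**Figure D1:**
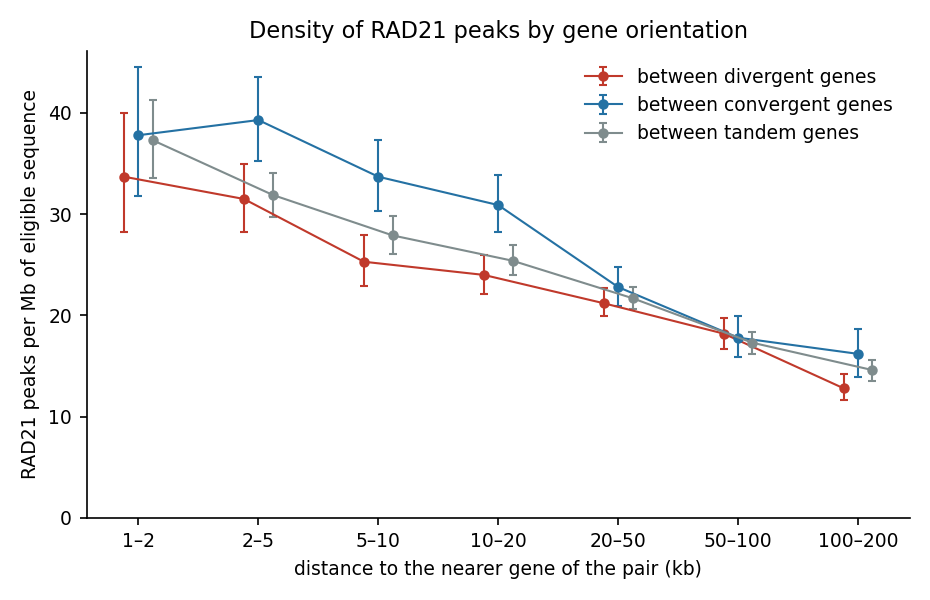
Peaks per Mb of sequence that meets the limits (vertical axis) against distance to the nearer gene of the pair in kb (horizontal axis) for divergent, convergent and tandem genes, with exact Poisson 95% intervals as bars. Densities fall with distance in all 3 orientations, except for a rise from 37.8 to 39.3 between the first points of convergent genes, and the divergent points (31.5, 25.3 and 24.0) lie below the convergent ones (39.3, 33.7 and 30.9) from 2 to 20 kb.

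The height of the peaks followed distance in another way. The median fold enrichment between divergent genes was 6.99 at 1 to 2 kb, rose to 8.60 at 5 to 10 kb and was 5.93 at 100 to 200 kb. The share that reached a fold enrichment of 10 ran from 35.9% at 1 to 2 kb through 45.0% at 5 to 10 kb to 28.5% at 100 to 200 kb. Peaks were about as often nearer to the left gene, 1658 of 3355 (49.4%), as to the right one. For 2018 of the peaks (60.1%) the nearest gene of any type was not one of the pair but another gene.

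Gaps with no other gene between the divergent pair had a higher density than gaps with one. The 803 pairs of the first kind held 512 peaks, 24.0 per Mb (22.0 to 26.2), with a median fold enrichment of 8.19 and the exact CTCF consensus at 16.0%. The 1825 pairs of the second kind held 2843 peaks, 20.3 per Mb (19.6 to 21.1), with 7.25 and 13.5%. Gap length moves with this split, and its part was not tested. Across gap lengths the density was 31.2 per Mb in gaps under 5 kb, which held 6 peaks, and fell from 38.1 per Mb in gaps of 5 to 10 kb to 25.0 in gaps of 50 to 100 kb and 12.7 in those of 500 kb or more. The share of pairs with a peak rose over the last 3 of these classes from 16.1% to 70.5% and 88.5%.

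A single peak was found in 663 of the pairs, 2 to 4 peaks in 665 and 5 or more in 149. These 149 pairs held 971 of the peaks. No peak was found in 1151 pairs, whose median gap was 20694 bp against 79603 bp of pairs with a peak. Among gaps without a peak, those with the most sequence within the limits, summed over the gap, held 388 kb between SYT10 and ALG10 on chromosome 12, 383 kb between CDH12 and PRDM9 on chromosome 5 and 275 kb between SCN7A and XIRP2 on chromosome 2. Within 10 kb of another peak of the same kind lay 1219 peaks (36.3%), and within 50 kb 2304 (68.7%). Over the chromosomes the density had a median of 20.3 per Mb, from 16.3 on chromosome 4 (14.1 to 18.7) to 36.7 on chromosome 22 (28.6 to 46.3). Chromosomes 16, 17 and 19 had 30.3, 34.4 and 34.3.

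The pair with most peaks was PRSS58-PRSS1 on chromosome 7, both serine protease genes, between which lie the V gene segments of the T-cell receptor beta chain. It held 14 peaks in 491 kb, with fold enrichments from 3.41 to 16.0. None of them had the exact CTCF consensus and 5 had it with 1 mismatch. The 14 peaks form 2 groups, 9 of them between 40.1 and 187 kb from PRSS58 and 5 between 328 and 411 kb. FGF3-ANO1 on chromosome 11, between a fibroblast growth factor and a calcium-activated chloride channel, held 13 peaks in 166 kb, from 2.49 to 53.1. A cluster of 3 peaks at 93.7, 96.2 and 99.6 kb from FGF3 had fold enrichments of 20.6, 14.3 and 53.1. SDK2-RPL38 on chromosome 17 held 13 peaks in 559 kb, from 2.22 to 46.4. The peak of 46.4, with 441 fragments, lay 26.7 kb from RPL38, a ribosomal protein gene, and another of 42.2 stood alone 197 kb from SDK2, a cell adhesion gene.

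CBFA2T3-ACSF3 on chromosome 16 had as many peaks as OTOS-GPC1 on chromosome 2, 12 each, but they were all low. Their fold enrichments ran from 2.10 to 3.91 with 17 to 29 fragments, and none of the 12 had a CTCF match with up to 1 mismatch. In OTOS-GPC1, 11 peaks ranged from 2.22 to 8.91 and 1 reached 30.4, 5.83 kb from OTOS. CDH11-CDH5, between cadherin genes, held 10 peaks. It had 1 peak far above its median, 57.2 against 5.81.

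**Figure D2:**
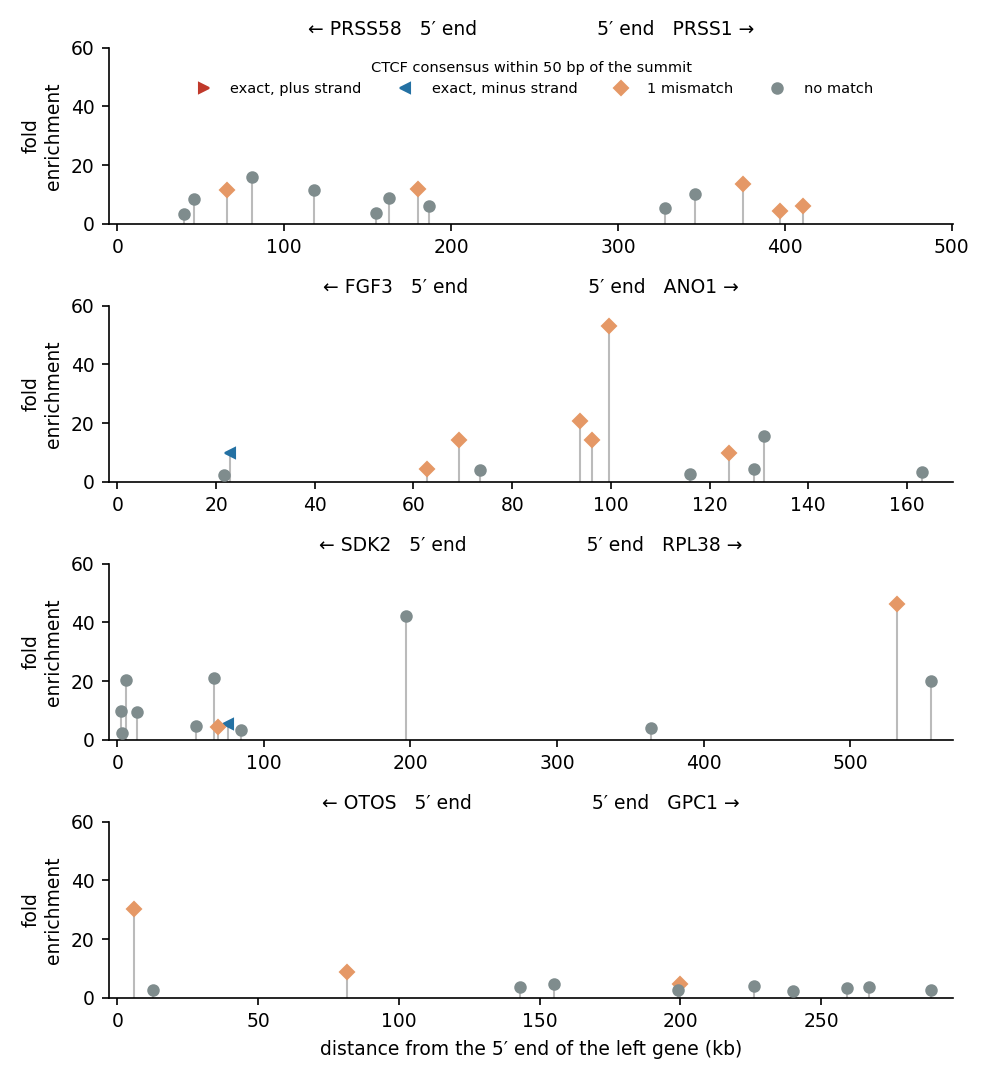
Fold enrichment of each peak (vertical axis) against its distance in kb from the 5′ end of the left gene (horizontal axis) in the 4 divergent pairs with most peaks, the 5′ end of the right gene lying near the right edge of each panel. Markers give the CTCF consensus within 50 bp of the summit, and only 2 of the peaks, 1 each in FGF3-ANO1 and SDK2-RPL38, have it without a mismatch, both on the minus strand.

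Peaks between divergent genes were higher than the average peak, as were those between genes of the other orientations. A fold enrichment of at least 10 was reached by 1248 of 3355 (37.2%, interval 35.6 to 38.8), against a background of 27.4% among all 55201 peaks of chromosomes 1 to 22. The shares were 36.9% between convergent genes (35.0 to 38.9) and 35.8% between tandem genes (34.7 to 37.0), which overlap with that of divergent genes. The median fold enrichment was 7.00 in both, and 5.60 over all peaks. A fold enrichment of at least 50 was reached by 52 peaks between divergent genes (1.55%), with 1.01% among all peaks. The orientations thus differed in the number of peaks per Mb beyond counting error, while the intervals of the share of high peaks overlapped.

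The exact CTCF consensus lay within 50 bp of the summit at 465 peaks between divergent genes, 13.9% (12.7 to 15.1), with 11.4% as the background of all peaks. Between convergent and tandem genes it was found at 13.3% and 13.6%. Control windows 5 kb to either side of the divergent peaks held it in 2 of 6710 cases (0.0298%), and windows of the same length laid over all the sequence that met the limits in 618 of 1589252 (0.0389%). With up to 1 mismatch it was found at 1544 peaks, 46.0% (44.3 to 47.7), against 38.5% of all peaks and 0.581% of the control windows. Looked at from the sequence, 694 exact matches lay between divergent genes within the limits, and 506 of them (72.9%, 69.5 to 76.1) were inside a RAD21 peak. The shares were 71.8% between convergent and 71.0% between tandem genes.

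Peaks with the consensus were higher. The median fold enrichment was 12.1 (quartiles 6.69 and 19.0) at the 465 with an exact match, 9.28 (5.79 and 16.7) at the 1079 with 1 mismatch and 5.50 (3.48 and 10.4) at the 1811 with neither, with 105, 82.0 and 46.0 fragments. The ranges overlap widely, and 485 of the peaks with neither reached a fold enrichment of 10. When the peaks were ranked by fold enrichment and split into 5 classes of 671, the exact match rose from 2.83% (1.82 to 4.38) in the lowest to 22.8% (19.8 to 26.1) in the highest. The share with up to 1 mismatch rose from 15.6% to 65.3%. The median GC content was 52.5% in windows with an exact match and 53.5% in those with neither. Over the 5 classes it was 55.4%, 50.5%, 49.5%, 50.5% and 58.4% from the lowest to the highest, and its part was not tested. The median width rose from 289 bp in the lowest to 733 bp in the highest class.

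**Figure D3:**
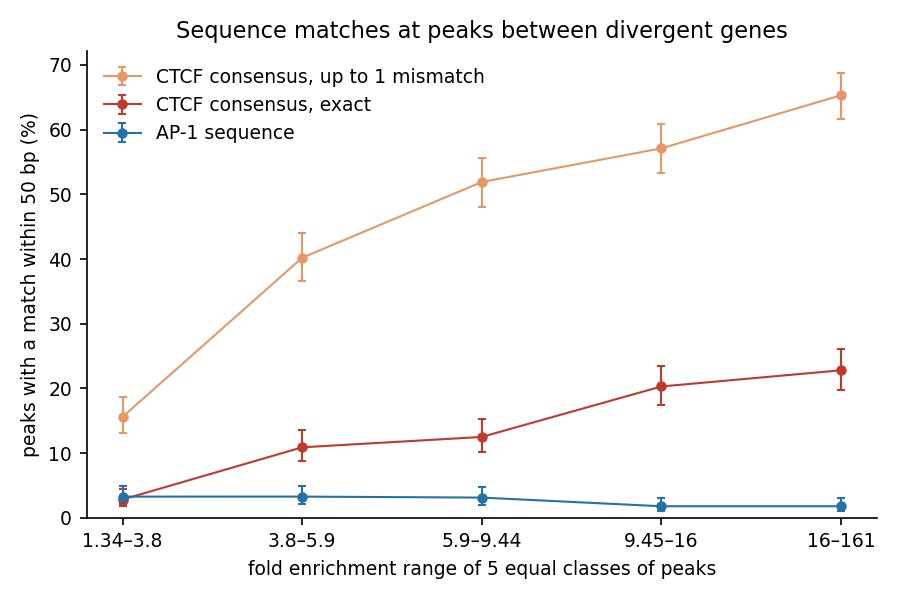
Share of peaks with a sequence within 50 bp of the summit (vertical axis, %) in 5 equal classes of the peaks ranked by fold enrichment (horizontal axis, with the range of each class), with Wilson 95% intervals as bars. CTCF matches rise from 2.83% to 22.8% without and from 15.6% to 65.3% with up to 1 mismatch, while AP-1 is at 3.28% in the lowest and 1.79% in the highest class.

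Most peaks had at most 1 such match. Matches need not be separate sites, since those on opposite strands can overlap, as they do at NEURL3-ARID5A. Within 150 bp of the summit, 1543 peaks had 1 match with up to 1 mismatch, 85 had 2 and 13 had 3 or more, counted over both strands, while 1714 had none. The median fold enrichment was 9.55, 10.3, 17.7 and 5.51 in this order, and the share with at least 10 was 47.1% (44.6 to 49.6), 51.8% (41.3 to 62.1), 61.5% (35.5 to 82.3) and 27.4% (25.3 to 29.5). The intervals of the classes with a match overlap. The peak with most matches, TCERG1L-PPP2R2D on chromosome 10, held 14 of them and had a fold enrichment of only 3.19 with 21 fragments. Of the 52 peaks that reached a fold enrichment of 50, 15 had no match within 150 bp.

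The strand of the consensus did not follow the nearer gene. Among the 465 peaks with an exact match, 232 (49.9%, 45.4 to 54.4) pointed with the 3′ end of the match at the nearer gene of the pair and 233 away from it. At less than 20 kb the share was 47.8% (41.4 to 54.3) and farther away 51.9% (45.6 to 58.1). The plus strand carried 244 of the matches (52.5%).

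Neighbouring matches in a gap more often faced apart than towards each other between divergent genes, and less clearly between the others. Exact matches at neighbouring peaks gave 74 such neighbours in 64 gaps. In 29 of them (39.2%, 28.9 to 50.6) the left match was on the minus and the right one on the plus strand, so that they pointed the same way as the genes on either side. In 12 (16.2%, 9.53 to 26.2) they faced each other, and in 33 they were on the same strand. With up to 1 mismatch, 155 of 511 (30.3%, 26.5 to 34.5) faced apart and 86 (16.8%, 13.8 to 20.3) faced each other. By spacing, 74 faced apart and 29 faced each other of 238 neighbours 1 to 20 kb apart, 43 and 21 of 120 neighbours 20 to 50 kb apart, and 38 and 36 of 151 over 50 kb. At 1 to 20 kb the excess was also present between convergent genes, 48 against 29 of 172, and between tandem genes, 97 against 63 of 372. At 20 to 50 kb the counts were 17 against 19 of 70 and 56 against 39 of 218 in the same order. Over 50 kb they were 19 against 20 of 82 and 61 against 74 of 284. Between convergent genes 25.6% faced apart (21.2 to 30.6) and 21.3% faced each other (17.3 to 26.1), and between tandem genes 24.6% (21.8 to 27.5) and 19.9% (17.4 to 22.7). The intervals of facing apart overlap between the orientations, and neighbours share peaks with each other, so the intervals are too narrow.

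Summits lay on the 3′ side of the consensus. For the 478 peaks with an exact match within 150 bp, the summit was a median of 11.5 bp from the centre of the match in the direction of its 3′ end, with quartiles of −1.50 and 20.5 bp. It was on that side in 349 (73.0%, 68.9 to 76.8), in 69.5% of the convergent peaks (64.2 to 74.3) and in 77.6% of the tandem ones (74.7 to 80.2). Among divergent peaks that reached a fold enrichment of 10 the share was 224 of 270 (83.0%, 78.0 to 87.0), with a median of 14.5 bp, and below 10 it was 125 of 208 (60.1%, 53.3 to 66.5), with 5.50 bp. These intervals do not overlap. Lower peaks rest on fewer fragments, which place a summit less exactly, and its part in this difference was not tested.

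**Figure D4:**
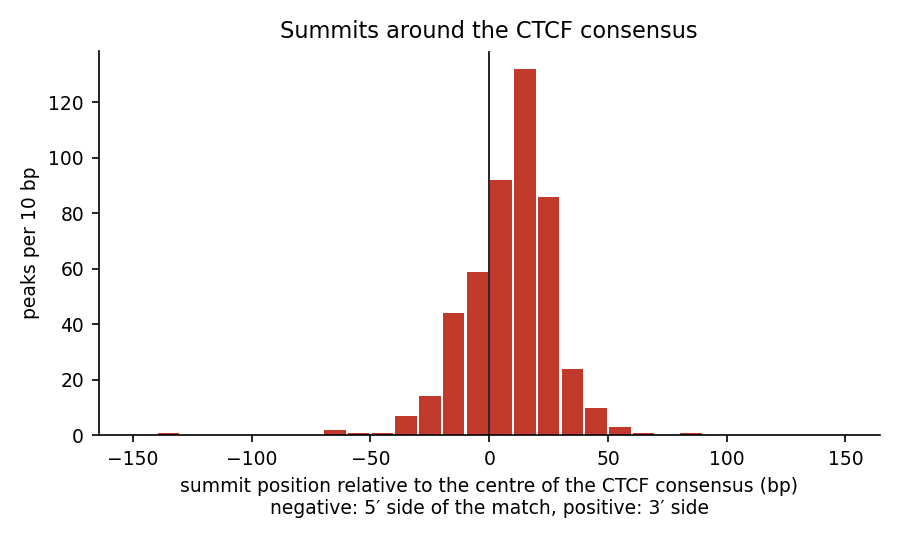
Number of peaks between divergent genes per 10 bp (vertical axis) by the position of the summit relative to the centre of the exact CTCF consensus in bp (horizontal axis), positive values lying on the 3′ side of the match. The bars are highest from 10 to 20 bp on the 3′ side, and 349 of the 478 summits have a positive value.

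No other sequence searched for came near CTCF. Matches were counted in the same windows on both strands, and a match describes the letters only and not a bound factor. The AP-1 sequence TGANTCA, which is its own reverse complement and is bound by FOS and JUN dimers, was found at 89 peaks between divergent genes (2.65%, 2.16 to 3.25), with 2.46% as the background of all peaks, 3.14% in control windows and 3.15% in windows over all the sequence within the limits. TCF/LEF (ATCAAAG), whose last letters are the first of the HNF4 sequence, was at 1.07% with 1.39% in control windows, forkhead (TGTTTAC) at 1.13% with 0.969%, RUNX (TGTGGTT) at 2.03% with 1.76% and TEAD (CATTCC) at 4.77% with 5.78%. The HNF4 sequence CAAAGTCCA was found at 5 peaks, 0.149% as in the control windows. The sequence AGATAAG of GATA factors was less frequent, with 0.715% (0.481 to 1.06) against 1.45% (1.19 to 1.76), but its share was 0.582% over all peaks. ETS (CCGGAAG) was at 0.596% with 0.522% in control windows, 0.220% in windows over all the sequence within the limits and 1.02% of all peaks. KLF/SP (CCCCGCCC) was at 0.954% (0.676 to 1.34) with 0.507% (0.363 to 0.707), 0.220% and 1.71% in the same order. Over all peaks the shares of TCF/LEF, HNF4, forkhead, RUNX and TEAD were 0.877%, 0.111%, 0.973%, 1.90% and 5.15%. Only for GATA did the intervals of peaks and control windows not overlap beside CTCF. The median GC content was 53.5% in the peak windows and 44.6% in the control windows, and its part in these shares was not tested.

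The 53 peaks with the AP-1 sequence and no CTCF match with up to 1 mismatch had a median fold enrichment of 4.49 and 37.0 fragments. The 1758 peaks with neither sequence had 5.51 and 47.0. The highest of the 53 was that of NFKBIE-TMEM151B, 747 bp wide with a fold enrichment of 18.9 and 197 fragments. It lay 2.43 kb from NFKBIE, an inhibitor of NF-κB, and 2.23 kb from TMEM151B. SERTAD2-SLC1A4 had 14.5, RNGTT-PNRC1 12.8, PTPRS-ZNRF4 12.5 and IRX3-IRX5 10.4. A fold enrichment of at least 10 was reached by 6 of the 53 (11.3%). The share was 27.2% of the 1758 with neither sequence and 37.2% of all peaks between divergent genes.

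Genes of colon and WNT biology were described from lists, which were chosen with earlier results of these data known. Intestinal transcription factors flanked 10 divergent gaps with sequence within the limits, and 9 of these had a peak, 30 peaks in all with a median fold enrichment of 8.63. Of the 30, 13 reached at least 10 (43.3%). Over all divergent gaps 56.2% had a peak, and of all their peaks 37.2% reached 10 with a median of 7.34. The listed gaps were longer, with a median of 131 kb against 46.0 kb, and of all gaps of 100 to 200 kb 80.2% had a peak. GATA5-SLCO4A1 held 5 peaks up to 33.3. PDGFRB-CDX1 held 1 peak of 14.1, 5.43 kb from CDX1, a caudal homeobox factor of the intestinal epithelium, and VDR-TMEM106C, at the vitamin D receptor gene, 1 of 13.5. HBS1L-MYB had 1 peak of 8.41 near the middle of its gap of 78.3 kb.

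Genes of the WNT pathway and its targets flanked 12 gaps, of which 11 had a peak (91.7%, with 56.2% of all divergent gaps). Their 30 peaks had a median fold enrichment of 10.4. Of the 30, 15 reached at least 10 (50.0%, with 37.2% of all peaks between divergent genes). These gaps had a median of 96.3 kb, and of all divergent gaps of 50 to 100 kb 70.5% had a peak. The list does not hold WNT7B, so that WNT7B-PPARA is not counted here. Among ligands, WNT6 had 2 peaks in the gap to PRKAG3, of 24.8 and 73.2. At the co-receptor gene LRP5 the gap to C11orf24 held 1 peak of 38.1. The genes of the nuclear effectors TCF7 and LEF1 had 3 peaks up to 45.4 in VDAC1-TCF7 and 2 peaks of 7.83 and 34.2 in LEF1-RPL34. At APC, the tumour suppressor of the destruction complex, EPB41L4A-APC held 3 peaks of 6.54, 6.87 and 14.9, the highest 132 kb from EPB41L4A. The inhibitor genes WIF1, ZNRF3 and NKD1 had peaks up to 12.5, 13.3 and 26.9. BMP4-CDKN3 held most peaks of this list, 7 from 4.08 to 21.2.

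Immediate early genes, which are switched on within minutes of a stimulus, had peaks in 4 of 9 gaps (44.4%, with 56.2% of all divergent gaps). These gaps had a median of 102 kb, and of all divergent gaps of 100 to 200 kb 80.2% had a peak. The median fold enrichment of their 12 peaks was 3.51. Of the 12, 4 reached 10 (33.3%, with 37.2% of all peaks between divergent genes). SMNDC1-DUSP5 held 8 of the 12, from 2.39 to 20.9. In TMED10-FOS there were 2, of 2.75 and 3.59, the latter 1.28 kb from FOS. Genes of cohesin and its partners flanked 6 gaps and 4 had a peak (66.7%, with 56.2% of all divergent gaps). These gaps had a median of 64.8 kb, and of all divergent gaps of 50 to 100 kb 70.5% had a peak. Of their 9 peaks, 2 reached 10 (22.2%, with 37.2% of all peaks between divergent genes). WAPL, the release factor, had 4 peaks up to 22.9 in the gap to OPN4, and STAG1 had 1 of 18.5. RAD21 itself had 3 between 6.75 and 8.17 in the gap to AARD, and PDS5A 1 of 2.75 with 18 fragments.

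Developmental transcription factor families flanked 61 gaps, of which 40 (65.6%, with 56.2% of all divergent gaps) had a peak. These gaps had a median of 114 kb, and of all divergent gaps of 100 to 200 kb 80.2% had a peak. The 114 peaks had a median fold enrichment of 7.83, and 43 (37.7%) reached at least 10, near the 7.34 and 37.2% of all peaks between divergent genes. HAND1-LARP1 held 10 peaks up to 39.9. EN1-MARCO held 3, all high, of 29.0, 31.8 and 54.3, and DLX5-SDHAF3 3 of 8.40, 31.6 and 32.0. At the ends of HOX clusters, HOXA13-EVX1 had 1 peak of 41.8 and EVX2-HOXD13 2 of 13.0 and 25.7 in a gap of 8.76 kb. IRX2-IRX1, a gap of 844 kb, had a single peak of 4.93, and IRX3-IRX5, of 644 kb, had 6 from 2.46 to 10.4. The lists share GATA5 and FOXA2, and with 9 to 114 peaks each their medians were not compared by a test.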

How the data were processed

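RAD21 ChIP-seq of untreated wild-type HCT116 cells was analysed from the deposited peak list of 1 library. According to the methods and the submitters' processing notes, the authors used Trimmomatic 0.39 to trim the read pairs, Bowtie2 2.5.3 to align them to GRCh38 and Picard to remove duplicates, and called peaks with MACS2 2.2.9.1 against Input at a q-value threshold of 0.05. Which Input served for the wild-type library is not given in the sources used here. The deposited columns hold a fold enrichment (a ratio), the −log10 of the p-value and of the q-value, a score (not used) and the summit offset (another quantity, in bp). No libraries were pooled for peak calling.

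The authors' fold enrichment and p-value together gave back the fragments and the local background of each summit, as MACS2 takes its p-value from a Poisson distribution and adds 1 to each count in its ratio. The fragments were whole within 0.05 for all but 14 of 56853 peaks. The lowest background, 5.90 fragments in the narrowest peak width of 222 bp, corresponds to about 74600000 ChIP fragments, inferred and not counted. The recovery and the sequence search were tested on simulated data. The choice of peaks was checked by a direct search of the annotation for peaks drawn from the list.

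Summits were placed with GENCODE version 44. Sequence that met the rule was counted base by base without assembly gaps, and densities have exact Poisson intervals. Shares have Wilson intervals at 95%. The CTCF consensus and 9 shorter sequences were searched for within 50 bp of summits on both strands. The text names the 10 highest, 3 lowest and 3 widest peaks, those at the limits, the 5 highest with AP-1 and without CTCF, the 8 pairs with most peaks and pairs with listed genes. Some of these are not reported here. Members and lists were chosen with earlier results of these data known. No test was made, as there was 1 library. Alternatives were stricter q-value thresholds, other distance limits, other gene sets, a background limit, merging of close summits, 1 mismatch, a wider window and ranking by q-value. Scripts ran in Python 3.11.15 with scipy 1.17.1, numpy 2.4.6, matplotlib 3.10.9 and pandas 2.3.3, and samtools 1.23.1 indexed the genome.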

Additional observations from a re-analysis of the deposited data

Results flagged for a closer look

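The rule took chromosomes 1 to 22 only. Outside it, 144 peaks on chromosome X met the same limits between divergent genes, and they are given here because no comparison above uses them. The median of their fold enrichments was 6.88 and the quartiles were 5.36 and 10.5. The library has no control sample of the same kind to set them against.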

How the results depend on the processing

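No paired analysis was possible because the series held 1 RAD21 library per condition and no result came from a test. Of 44 alternative values, 32 lay within 1.5 times the main count or within the 95% interval of the main value and 12 did not. Comparisons between orientations were not repeated under the alternatives. The median fold enrichment of 7.34 was 7.89 at a q-value of at most 0.001, 8.55 at 1e-05 and 7.00 when summits had to lie outside protein-coding genes only. The density of 20.8 per Mb was 19.6 and 18.3 at these q-values, 24.0 when only 3′ gene ends counted in the 1 kb limit, 22.7 with a limit of 100 kb to the 5′ end and 19.4 with a background below 2 times the lowest. The number of 3355 peaks was 5263 when only protein-coding genes were avoided. The CTCF share of 13.9% was 15.5% at a q-value of at most 1e-05 and 46.0% with up to 1 mismatch. Ranked by q-value, 6 of the 10 highest peaks remained. The q-value, background and gene limits change which peaks or sequence enter, while 1 mismatch and the ranking use the same 3355 peaks. The number of gene pairs with a peak and the share of matches that point at the nearer gene (49.5% to 49.8%) stayed within the same bounds. Low fragment counts limit what low peaks can show, and the recovered values depend on how MACS2 was run.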
